A study of Mus musculus with 12 samples.

Results

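The genes described here are 40 writers and erasers of histone methylation, chosen by name with earlier results of these data known. They are 30 genes of methyltransferases and their core complexes (writers) and 10 genes of demethylases (erasers). All 40 were found among the 24279 genes of the deposited tables, and all 40 passed the filter on low counts that left 15186 genes for testing. The RNA was from primary cultures of mouse embryonic fibroblasts taken at embryonic day 12.5. Cells were either wild type or carried 2 copies of a variant of Rsg1 (Rsg1L3P/L3P), a small GTPase gene needed for cilia (Cplane2 in current annotation, on chromosome 4 at 141213956 to 141226756 of mm10). Their F3 mice had been kept on a moderate diet with 2 ppm folic acid or a fortified diet with 10 ppm, and the cells were grown in medium with 225 or 3600 ng/mL folic acid to match. Diet and medium changed together, so their parts cannot be told apart. Each of the 4 groups, moderate wild type, moderate mutant, fortified wild type and fortified mutant, held 3 libraries.

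Histone methyltransferases move a methyl group from S-adenosylmethionine, the cell's methyl donor, to lysines or arginines of histone tails, and the folate cycle feeds the making of that donor. Lysine 4 of histone H3 (H3K4) is methylated by the KMT2 and SETD1 enzymes and marks promoters and enhancers, H3K36 methylation by SETD2 and the NSD enzymes marks transcribed genes, and H3K9 and H3K27 methylation mark silent chromatin. Erasers remove these marks by an amine oxidase reaction (KDM1 enzymes) or by the JmjC domain, which needs iron and oxoglutarate. Fibroblasts of the embryo use all of these marks. Not all the genes counted here as writers code for an enzyme: Eed and Suz12 code for core subunits of the Polycomb complex PRC2, Jarid2 for a PRC2 partner with a JmjC domain that lacks activity, and Kmt2e for a KMT2 relative without clear activity.

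Depth ran from 39339190 to 48475963 counts per library, and the least abundant member still had 260 counts in its lowest library. Counting error was small beside the spread between libraries for most members. For some members of low level, such as Smyd3 in fortified wild type and Kdm1b in moderate mutant libraries, the spread within a group was no larger than counting error. Nothing in the labels ties the 3 libraries of a group to separate embryos, so p values measure the spread between these libraries only. Correlations between libraries of a group were 0.979 to 0.990 for moderate mutant and 0.922 to 0.969 for moderate wild type. For the fortified groups they were 0.967 to 0.980 (wild type) and 0.956 to 0.986 (mutant). Whether the moderate mutant libraries are independent was not tested, so their separation from other groups cannot count as 3 independent results. The 10 fibroblast markers were all present, with a summed level of 6256 to 19057 TPM (transcripts per 1000000, a level per transcript length). This sum was 6256 to 12440 TPM in moderate wild type and 13502 to 19057 in fortified wild type libraries. It was 11261 to 11955 TPM in moderate mutant and 8522 to 10707 in fortified mutant libraries, so fortified wild type lay above the rest without overlap. None of the listed markers of other cell types was at 0 in all libraries: 12 muscle markers summed to 752 to 5095 TPM and 12 neuron markers to 74.3 to 344 TPM. Fortified mutant 2, fortified mutant 3 and moderate wild type 1 stood apart from the rest by the highest muscle and neuron marker levels. Xist, the transcript of the inactive X chromosome, was present in 8 libraries, which were all 6 mutant libraries, moderate wild type 1 and fortified wild type 1. The Y-linked genes Ddx3y, Eif2s3y, Kdm5d and Uty had 7061, 10512 and 11000 summed counts in moderate wild type 2, moderate wild type 3 and fortified wild type 3. They had 0 in every other library, and fortified wild type 2 also had only 9 Xist counts. A change in expression of a mixed culture can come from fewer cells of a type or from less RNA per cell, and these cannot be told apart.

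Among writers, the arginine methyltransferase gene Prmt1 had the highest level, with 364 ± 70.4 TPM (mean and SD of 12 libraries). It was followed by Carm1, which methylates arginines as a partner of transcription activators, at 106 ± 15.7 TPM, and by the H3K9 methyltransferase gene Ehmt2 at 83.4 ± 15.2 TPM. This is the order of the means: Prmt1 was first in all 12 libraries, while Prmt5 exceeded Ehmt2 in 4 of them. The lowest writers were Suv39h2 (4.42 ± 1.32 TPM), Setdb2 (5.28 ± 0.85 TPM) and Ezh1 (5.31 ± 1.83 TPM), whose ranges over the 12 libraries overlapped. Among erasers, Kdm1a, the H3K4 demethylase LSD1, had the highest mean, 66.7 ± 10.2 TPM, but was first in 7 of the 12 libraries only. Kdm4a or Kdm6b was first in the other 5, which were the 3 moderate mutant libraries and moderate wild type 2 and 3. In moderate mutant cells the means of Kdm4a, Kdm6b and Kdm1a were 81.9, 81.8 and 77.5 TPM. Over the 12 libraries Kdm4a, Kdm6b and Kdm5b had means of 55.3 ± 18.8, 51.5 ± 19.7 and 51.4 ± 15.1 TPM, levels that did not differ beyond their spread. The lowest eraser was Kdm1b, with 6.79 ± 1.14 TPM. The median over the 40 members was 30.2 TPM.

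**Figure D1:**
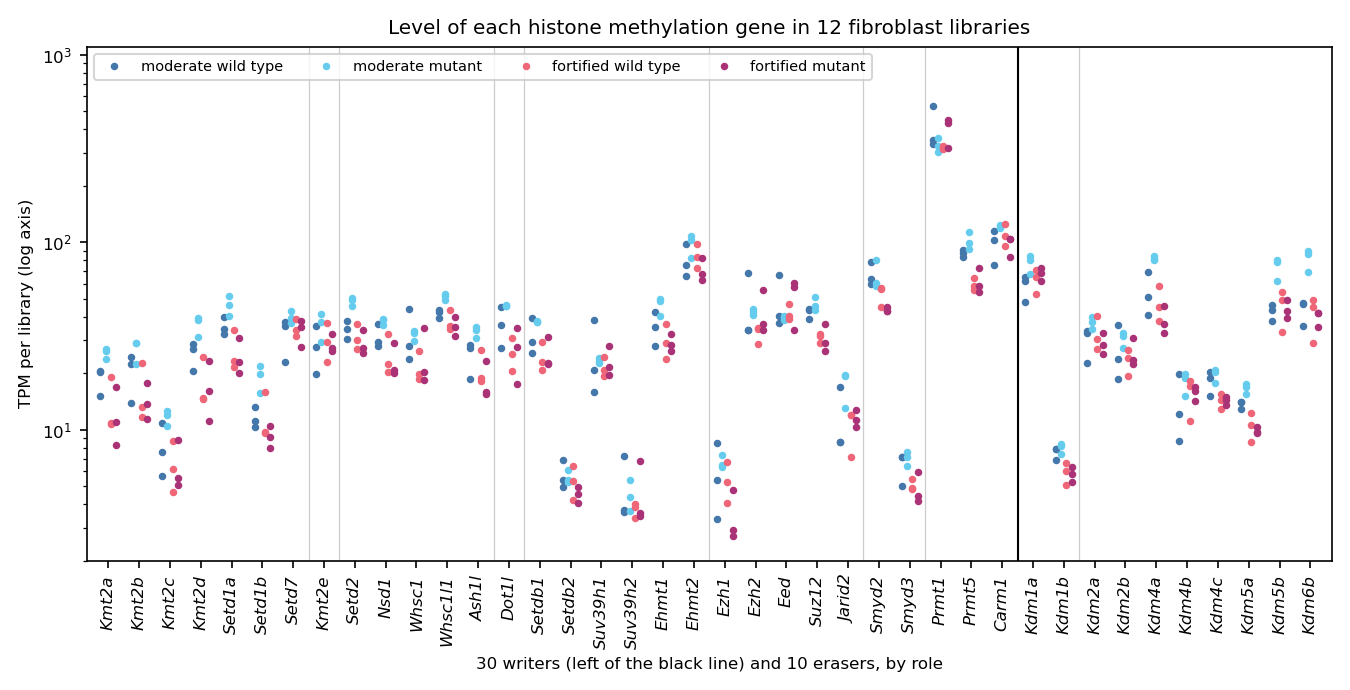
TPM of each of the 40 genes in every library on a log axis, with 1 point per library coloured by group, writers left of the black line and erasers right of it, and thin lines between roles. Prmt1 lies above all other members in every library (302 to 533 TPM), and Suv39h2, Setdb2, Ezh1 and Smyd3 form the low end.

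Related genes were used unequally. Ezh2, the main catalytic subunit of PRC2, exceeded its paralog Ezh1 in all 12 libraries, by 3.99 to 20.6 times in TPM. The highest ratios were in fortified mutant 3 (20.6) and moderate wild type 1 (20.5). These are the libraries with the highest mean level of 18 proliferation genes, with scores of 0.80 and 0.70 (mean log2 difference from each gene's mean over the 12 libraries) against 0.36 or less in the other 10; the part of proliferation in the ratio was not tested. The H3K9 methyltransferase gene Suv39h1 exceeded Suv39h2 by 4.10 to 6.62 times, and Setdb1 exceeded Setdb2 by 3.93 to 7.15 times, each in all 12 libraries. Kmt2a and Kmt2b, which code for the paired KMT2 enzymes of promoters, were near equal, with a Kmt2b to Kmt2a ratio of 0.91 to 1.38. Kmt2d exceeded Kmt2c, its partner at enhancers, by 2.20 to 3.66 times. Among erasers, Kdm1a exceeded Kdm1b by 6.09 to 13.1 times and Kdm5b exceeded Kdm5a by 2.69 to 5.13 times. The Setd1a to Setd1b ratio was 3.02 to 3.15 in moderate wild type libraries and 2.15 to 2.95 in the other 9, so moderate wild type lay above the rest without overlap. Other ratios separated groups too. Kdm1a to Kdm1b was 10.5 to 13.1 in fortified and 6.09 to 10.1 in moderate libraries. Moderate mutant libraries were the lowest for Prmt1 to Prmt5 (3.06 to 3.56) and the highest for Kdm4a to Kdm4c (3.89 to 4.53). How often ratios of other genes separate groups in this way was not computed.

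The first comparison asked how the members differed between fortified and moderate folic acid, averaged over both genotypes (6 libraries against 6). Of the 40 members 5 passed an adjusted p of 0.05 by edgeR's quasi-likelihood test, and all 5 fell at fortified folic acid: the writers Kmt2a, Kmt2d, Setd1a and Prmt5 and the eraser Kdm5a. That is 12.5% of the members, against 17.8% of all genes passing in either direction and 8.86% of all genes passing as lower. The members' share lay below the first and above the second, and the difference from either was not tested. The direction was uneven: 27 of 40 members had a negative log2 fold change (7591 of the 15186 genes did), and the median was -0.24 for writers and -0.14 for erasers against 0.00036 for all genes. An unadjusted p under 0.05 by edgeR was found for 19 members, 18 of them lower, against 33.9% of all genes.

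Prmt5, the main enzyme of symmetric arginine dimethylation, had 100, 110 and 121 CPM (counts scaled to library size and expressed per 1000000) in moderate wild type and 98.8, 108 and 134 in moderate mutant libraries. At fortified folic acid it had 80.5, 86.6 and 77.1 CPM in wild type and 77.3, 86.1 and 97.4 in mutant libraries. All 6 fortified libraries lay below all 6 moderate ones. The log2 fold change was -0.41 ± 0.10 (SE; adjusted p = 0.0219 by edgeR). Groups that did not overlap were found for 2 members, Prmt5 and Kdm5a, both lower, against 6.37% of all genes, 3.60% as lower.

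Kdm5a, an H3K4 demethylase, had 70.4, 68.6 and 89.2 CPM in moderate wild type and 80.2, 74.5 and 90.2 in moderate mutant libraries. It had 66.9, 55.5 and 64.2 CPM in fortified wild type and 60.0, 61.5 and 60.2 in fortified mutant libraries. Again every fortified library lay below every moderate one, with the gap smallest between 66.9 and 68.6 CPM. Fitted over both genotypes, the log2 fold change was -0.36 ± 0.10 (SE; adjusted p = 0.0296 by edgeR).

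Setd1a, a catalytic subunit of the COMPASS complexes that methylate H3K4, had 92.1, 113 and 110 CPM in moderate wild type and 116, 132 and 110 in moderate mutant libraries. It had 99.4, 80.2 and 69.4 CPM in fortified wild type and 66.2, 78.2 and 96.2 in fortified mutant libraries. The mutant groups did not overlap, and the wild type groups did, through fortified wild type 1. Its log2 fold change was -0.46 ± 0.12 (SE; adjusted p = 0.0288 by edgeR).

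Kmt2d, the main H3K4 methyltransferase of enhancers, had 260, 259 and 238 CPM in moderate wild type and 331, 341 and 293 in moderate mutant libraries. It had 243, 174 and 160 CPM in fortified wild type and 125, 187 and 249 in fortified mutant libraries. Fortified wild type 1 and fortified mutant 3 were near the moderate wild type level and the other 4 fortified libraries were below it. The log2 fold change was -0.59 ± 0.16 (SE; adjusted p = 0.0306 by edgeR).

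Kmt2a, the H3K4 methyltransferase MLL1 that maintains Hox gene expression, had 153, 164 and 145 CPM in moderate wild type and 192, 189 and 184 in moderate mutant libraries. It had 157, 106 and 97.7 CPM in fortified wild type and 77.5, 106 and 149 in fortified mutant libraries. The same libraries, fortified wild type 1 and fortified mutant 3, reached the moderate wild type range. The log2 fold change was -0.56 ± 0.16 (SE; adjusted p = 0.0346 by edgeR).

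The other 35 members did not pass, with log2 fold changes from -0.42 for Kdm4a to 0.33 for Eed. Kmt2b and Kmt2c, the remaining KMT2 enzymes, had -0.40 and -0.35. All 5 H3K36 writers were negative, from -0.32 for Ash1l, through Nsd1 (-0.29), Whsc1 (-0.25) and Setd2 (-0.22), to -0.20 for Whsc1l1 (Nsd3), with a median of -0.25. Dot1l, the H3K79 methyltransferase gene, had -0.41 ± 0.15 (adjusted p = 0.0799 by edgeR). Ehmt1 and Setdb1 had -0.23 and -0.24, while the other 4 H3K9 writers lay between 0.02 and 0.12. Within PRC2, Suz12 had -0.31, Ezh1 -0.31, Jarid2 -0.13 and Ezh2 -0.01. The SMYD methyltransferase genes Smyd2 and Smyd3 had -0.26 and -0.23.

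Erasers were divided in sign. Kdm4a and Kdm6b had -0.42 and -0.34 (adjusted p = 0.0692 and 0.0578 by edgeR), and Kdm1b, Kdm4c and Kdm5b had -0.19, -0.18 and -0.11. Positive values were found for Kdm4b (0.24), Kdm1a (0.20), Kdm2a (0.11) and Kdm2b (0.04), the last pair being H3K36 demethylases. So 6 of 10 erasers were negative, against 21 of 30 writers.

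**Figure D2:**
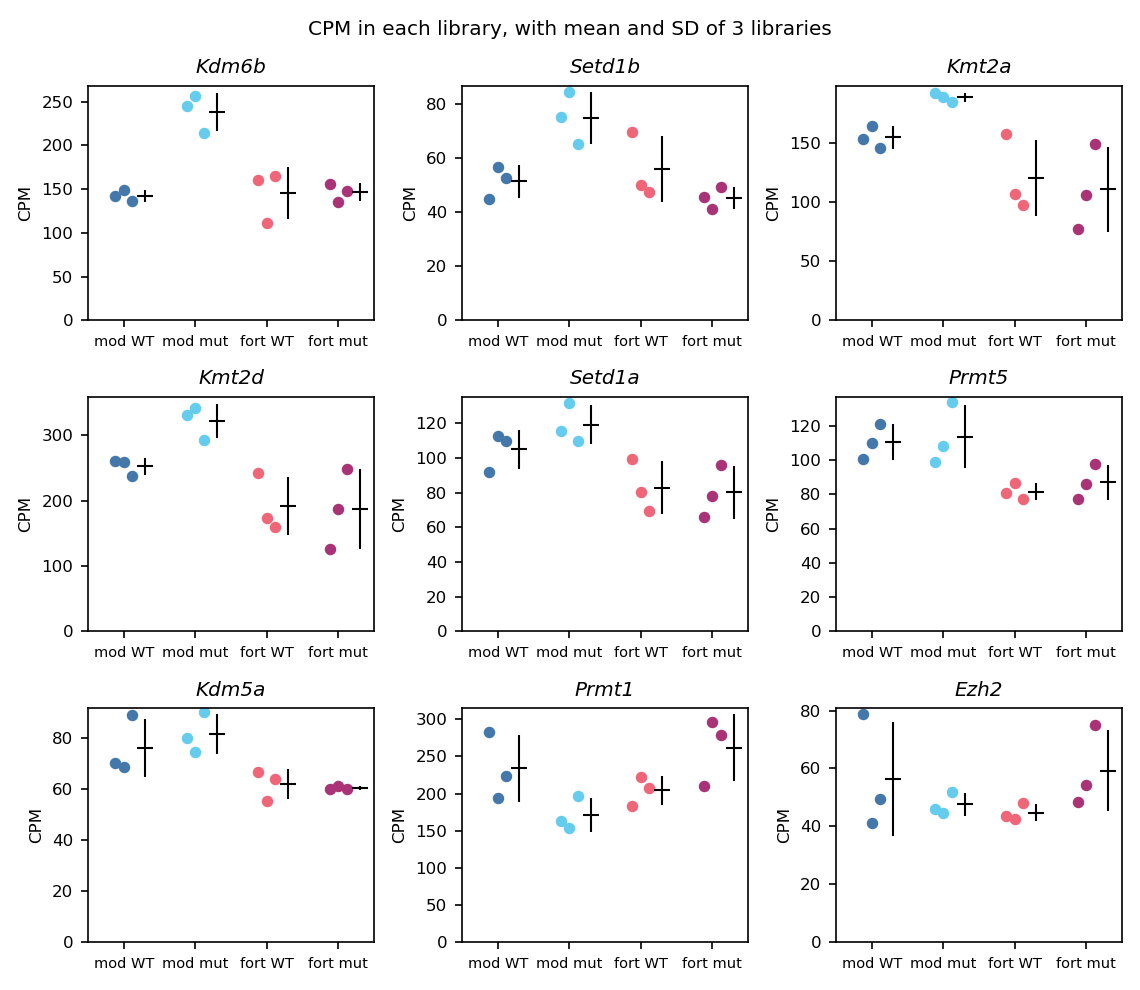
CPM of 9 members in each library (points, 3 per group, mod for moderate, fort for fortified, WT for wild type, mut for mutant), with the group mean and SD as a black bar beside them; axes start at 0. Prmt5 and Kdm5a show no overlap between moderate and fortified libraries, and Kdm6b is high in the 3 moderate mutant libraries (215 to 257 CPM) against 112 to 165 CPM in the other 9.

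These calls changed with the libraries and the fit. When 1 library was left out, 0 members passed without fortified wild type 3 and 8 without moderate wild type 1, fortified mutant 3 or fortified wild type 1, and Prmt5 passed in 10 of the 12 such fits, Kdm5a in 7, Kmt2d in 5 and Kmt2a and Setd1a in 4. In the same fits 9.15 to 26.2% of all genes passed. Without the 3 libraries of highest muscle and neuron levels 7 members passed and 25.4% of all genes, but Kdm5a did not (-0.41, adjusted p = 0.0515 by edgeR). Transcript length was also uneven between the groups. Over all genes, the median log2 fold change of this comparison ran from 0.22 through 0.03 and -0.05 to -0.17 over 4 equal bins of genes from the shortest to the longest transcripts, and 26 of the 40 members (18 writers and 8 erasers) were in the longest bin. The counts per TPM of the median gene were 62.2 to 73.8 in fortified libraries and 50.9 to 57.4 in moderate ones except moderate wild type 3, at 68.5. This value also scales with depth, which was 44068672 to 48475963 counts in fortified and 39339190 to 46018311 in moderate libraries.

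Kmt2d, Kmt2a and Kdm5a are among the longest, with effective lengths 7.35, 6.08 and 4.04 times that of the median gene, while Prmt5 has 0.92 times and Setd1a 2.15 times. With each library's trend on length removed, Prmt5 still fell (log2 fold change -0.43, adjusted p = 0.0349 by edgeR). Setd1a then had -0.35 (adjusted p = 0.0733 by edgeR), Kmt2a -0.21 (0.225), Kmt2d -0.18 (0.308) and Kdm5a -0.09 (0.739). Setd7, which methylates H3K4 and other proteins, passed in that fit alone, higher at fortified folic acid (0.35, adjusted p = 0.0396 by edgeR). The median became -0.07 for writers and -0.03 for erasers, against -0.02 for all genes, of which 13.3% passed. The cause of the trend on length was not tested.

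**Figure D3:**
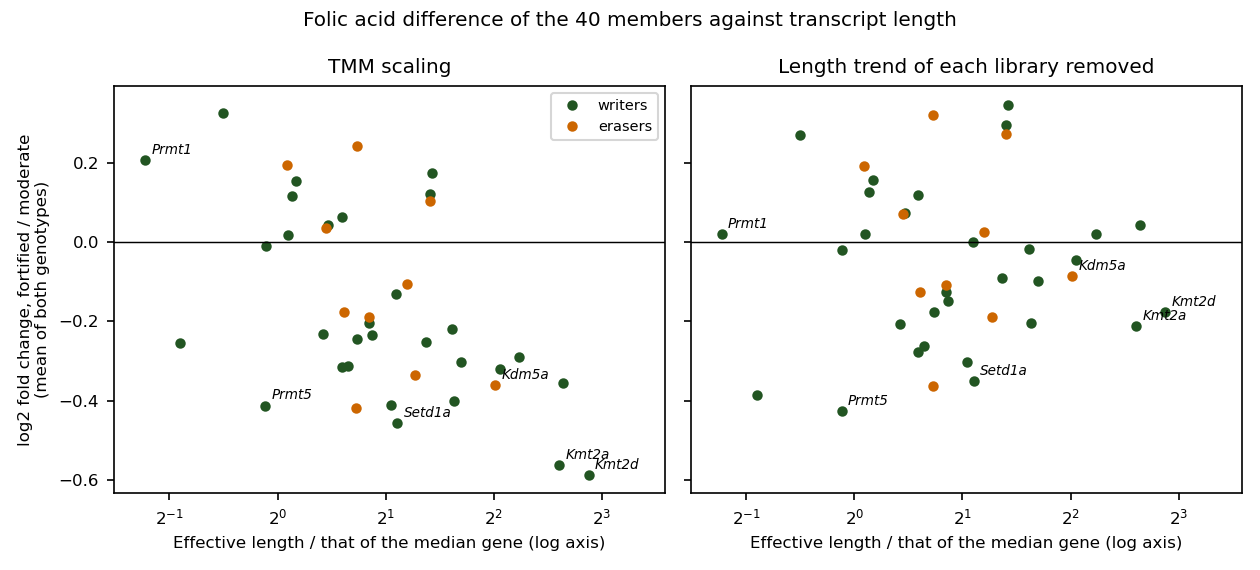
Log2 fold change of fortified against moderate folic acid (mean of both genotypes) of the 40 genes against effective transcript length relative to the median gene (log axis), as fitted with TMM scaling (left) and with the length trend of each library removed (right). Long genes such as Kmt2d and Kmt2a move from -0.59 and -0.56 to -0.18 and -0.21, while Prmt5 stays near -0.4.

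The start regions of 3 of the 5 genes that fell are shown as the sequence context of these calls. RefSeq (GRCm38.p6) gave a promoter for 27 of the 40 members. The bases just before the start are given 5′ to 3′ on the gene's strand, without any base that the GENCODE gene model covers. Kmt2a is shown from chr9:44881297-44881489, Kmt2d from chr15:98871206-98871405 and Prmt5 from chr14:54517526-54517670, all on the minus strand. Capitals mark GGGCGG (the GC box) in Kmt2a and Kmt2d and CCAAT (the CCAAT box) in Prmt5, on either strand.
Kmt2a: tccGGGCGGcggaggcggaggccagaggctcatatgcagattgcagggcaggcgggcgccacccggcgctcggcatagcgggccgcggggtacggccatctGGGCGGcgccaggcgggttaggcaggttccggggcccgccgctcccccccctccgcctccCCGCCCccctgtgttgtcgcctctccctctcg
Kmt2d: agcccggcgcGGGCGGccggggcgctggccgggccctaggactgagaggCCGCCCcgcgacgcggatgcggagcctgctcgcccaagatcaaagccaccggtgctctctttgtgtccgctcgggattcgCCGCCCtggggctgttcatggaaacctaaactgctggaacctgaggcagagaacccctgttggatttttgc
Prmt5: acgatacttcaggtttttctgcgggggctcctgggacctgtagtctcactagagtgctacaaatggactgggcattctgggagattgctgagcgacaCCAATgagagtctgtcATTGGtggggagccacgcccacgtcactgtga
The stretches of Kmt2a and Kmt2d held 3 GC boxes each, and that of Prmt5 held 2 CCAAT boxes. Within 250 bases before the start, GGGCGG on either strand was found in 17 of the 27 members (63%) and in 32.7% of 32851 RefSeq windows of that length, and CCAAT in 11 (40.7%) and 33.8%. Of the 27 members 22 had 1 window. A member with more counted if any window held the motif, which can raise the members' share against the share of single windows. The 27 members had a median ratio of observed to expected CpG pairs of 0.83, against 0.37 over all windows, and a median GC content of 66% against 52.4%. CCGGAAG (the ETS core) was found in 2 members (7.41%) against 6.91% of windows, and TGACGTCA (the cyclic AMP response element) in 1 (3.70%) against 1.55%. GCGCATGC and TTTCGCGC were in none of these member windows and in 2.26 and 0.256% of all windows. A match is a description of the letters only.

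In mutant cells alone (3 fortified against 3 moderate libraries, which also enter the average above), 2 of 40 members passed and both fell: the eraser Kdm6b and the writer Setd1b. That is 5% of members, against 6.93% of all genes passing and 2.74% passing as lower. Without overlap between the groups were 22 members, 19 of them lower, against 38.2% of all genes without overlap and 18.5% lower. An unadjusted p under 0.05 by edgeR was found for 17 members, 15 of them lower, against 25.6% of all genes. The medians were -0.28 for writers and -0.12 for erasers, with 0.04 for all genes.

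Kdm6b, an eraser of H3K27 methylation, had 245, 257 and 215 CPM in moderate mutant and 156, 135 and 148 in fortified mutant libraries, groups that did not overlap. The log2 fold change was -0.71 ± 0.16 (SE; adjusted p = 0.0305 by edgeR). Wild type libraries had 142, 149 and 136 CPM at moderate and 161, 112 and 165 at fortified folic acid. The 3 moderate mutant libraries thus stood above all 9 others, but whether these 3 are independent was not tested.

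Setd1b, the other SETD1 catalytic subunit of COMPASS, had 74.9, 84.2 and 65.1 CPM in moderate mutant and 45.4, 41.0 and 49.1 in fortified mutant libraries, again without overlap. The log2 fold change was -0.73 ± 0.17 (SE; adjusted p = 0.0370 by edgeR). Wild type libraries had 44.6, 56.5 and 52.7 CPM at moderate and 69.7, 50.1 and 47.3 at fortified folic acid.

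Of the 12 fits that each left out 1 library, the 6 that left out a mutant library ended both calls (adjusted p from 0.0562 to 0.137 by edgeR), and the other 6 kept both. The log2 fold changes stayed of similar size over the 12 fits, from -0.78 to -0.65 for Kdm6b and from -0.82 to -0.63 for Setd1b. Over all genes, 1053 passed with all libraries. Leaving out moderate mutant 1, 2 or 3 gave 0, 0 or 30 in turn, and leaving out fortified mutant 1, 2 or 3 gave 204, 39 or 477. Among wild type libraries, the number became 2073 (moderate 1 left out), 1638 (moderate 3) and 568 to 597 (any of the fortified ones). With the length trend removed, Kdm6b had -0.46 (adjusted p = 0.157 by edgeR) and Setd1b -0.39 (0.289), and 0 of 40 members and 0.56% of all genes passed. Without the 3 libraries with the highest muscle and neuron levels, Kdm6b had -0.65 (adjusted p = 0.129 by edgeR) and Setd1b -0.75 (0.0967), while Kmt2a, Kmt2d and Dot1l passed, as did 7.08% of all genes.

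By role, 6 of the 7 H3K4 writers had a negative log2 fold change in mutant cells, with a median of -0.57, and each of these 6 had an unadjusted p under 0.05 by edgeR and groups that did not overlap. Of all genes 25.6% had such a p and 38.2% did not overlap. The values were -0.78 for Kmt2d, -0.77 for Kmt2a, -0.73 for Setd1b, -0.57 for Setd1a and Kmt2b and -0.53 for Kmt2c, with 0.09 for Setd7. Only Setd1b passed adjustment. With the length trend removed the median of the 7 was -0.27 and 5 were negative. Of the 6 only Setd1a then kept an unadjusted p under 0.05 (0.0457 by edgeR), with 0.0709 for Setd1b, 0.0994 for Kmt2b, 0.117 for Kmt2a, 0.182 for Kmt2d and 0.998 for Kmt2c. The 5 H3K36 writers had a median of -0.37 and all were negative, from -0.55 for Ash1l to -0.06 for Whsc1 (Nsd2), and none passed. H3K9 writers were mixed, with 3 positive and 3 negative of 6.

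The PRC2 genes also differed among themselves, and none passed. Eed had 32.4, 33.8 and 34.4 CPM in moderate mutant and 36.9, 65.1 and 62.1 in fortified mutant libraries (log2 fold change 0.71, adjusted p = 0.0905 by edgeR). Ezh1 had -0.61 and Ezh2 0.32. In the same comparison all 18 proliferation genes had a positive log2 fold change, with a median of 1.02, and 3 passed. Over all genes the median was 0.04 and 6.93% passed (637 genes as higher). Ezh2 was highest in moderate wild type 1 (78.8 CPM) and fortified mutant 3 (75.03 CPM), the libraries with the highest proliferation scores; the part of proliferation in these values was not tested.

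Prmt1 had 163, 154 and 197 CPM in moderate mutant and 211, 296 and 279 in fortified mutant libraries, which did not overlap (0.61 ± 0.18, adjusted p = 0.0664 by edgeR). Among erasers, Kdm4a, which acts on H3K9 and H3K36, had 156, 157 and 177 CPM in moderate mutant and 116, 86.6 and 88.1 in fortified mutant libraries (-0.75 ± 0.21, adjusted p = 0.0524 by edgeR). Neither passed.

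**Figure D4:**
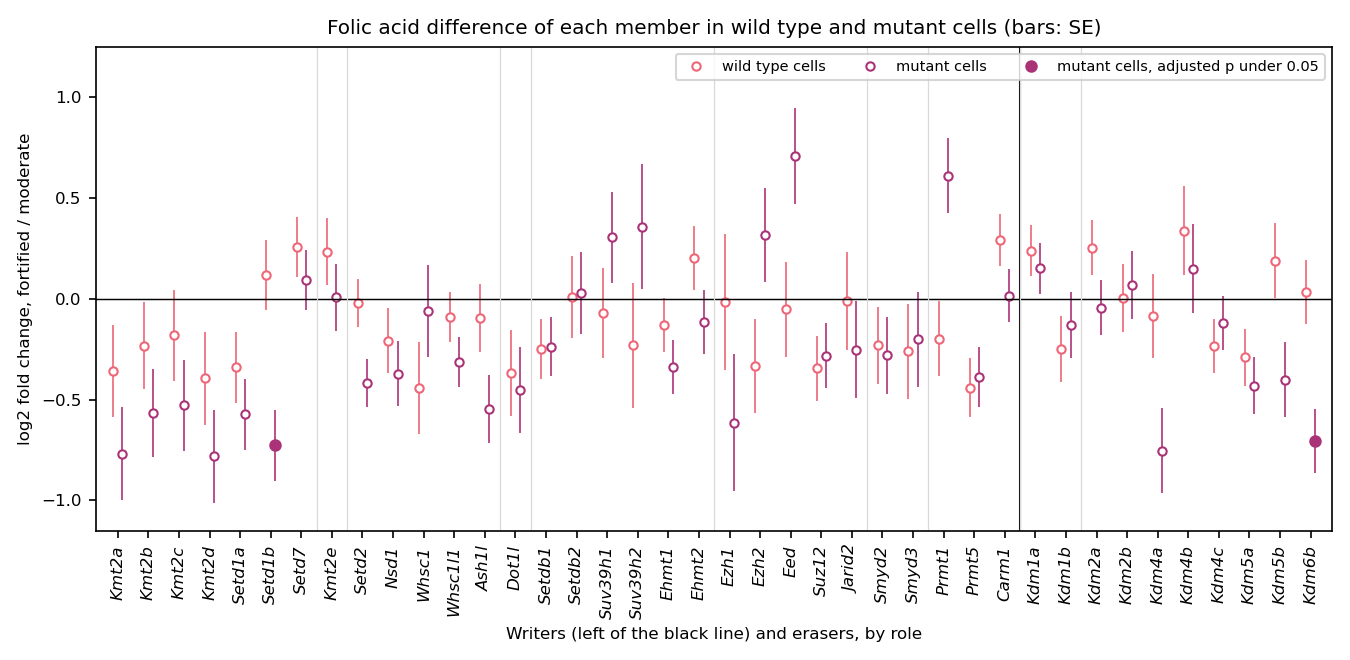
Log2 fold change of fortified against moderate folic acid for each member in wild type cells (pink) and mutant cells (purple), with SE as bars, writers left of the black line; filled points passed an adjusted p of 0.05. Setd1b and Kdm6b are the filled points (-0.73 and -0.71), and the points of wild type cells lie nearer to 0 for most H3K4 writers.

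In wild type cells, 0 of 40 members passed and 2 had an unadjusted p under 0.05 by edgeR (Prmt5 lower, Carm1 higher). Of all genes 0.0263% passed (4 genes) and 19.6% had an unadjusted p under 0.05. DESeq2 also passed 0 members, among 1204 genes (8.26% of those with an adjusted p). The number over all genes changed with the libraries: by edgeR it was 1012 (6.59%) when moderate wild type 1 was left out, 260 for fortified mutant 1 and 104 for moderate wild type 2, and 1 to 6 in the other 9 such fits. Without the 3 libraries of highest muscle and neuron levels it was 1298 (8.32%). No member passed in any of these fits. The medians were -0.19 for writers and 0.02 for erasers, with -0.04 for all genes. Prmt5, with the CPM given above, had -0.44 ± 0.15 (SE; adjusted p = 0.146 by edgeR) and Kdm5a, the eraser of smallest p, had -0.29 ± 0.14 (0.279). Both showed no overlap between the wild type groups, as did 8 of the 40 members, 3 higher and 5 lower, and 20.6% of all genes, 11.0% higher and 9.67% lower. Carm1 had 143, 169 and 134 CPM at moderate and 191, 172 and 183 at fortified folic acid (0.29 ± 0.13, adjusted p = 0.244 by edgeR).

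Genotype was compared next, first with moderate folic acid. No member passed, nor did any gene (0% of all genes). DESeq2 passed 1 member, Kdm6b (log2 fold change 0.74, adjusted p = 0.00902), among 51 genes (0.398%). An unadjusted p under 0.05 was found for 5 members: Kdm6b, Kdm5b, Setd1b and Setd2 were higher in the mutant and Prmt1 was lower. Over all genes 7.87% had such a p.

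Kdm6b, with the CPM given above, had 0.75 ± 0.16 (SE) with an adjusted p of 0.588 by edgeR; its lowest moderate mutant library was 215 and its highest wild type library 149 CPM. Setd1b had 0.54 ± 0.17 (adjusted p = 0.588 by edgeR), with the groups apart at 65.1 and 56.5 CPM. Kdm5b, an H3K4 demethylase, had 211, 217 and 182 CPM in moderate mutant and 107, 139 and 156 in moderate wild type libraries. Groups did not overlap for 11 members, 10 of them higher in the mutant, against 13.0% of all genes, 6.34% higher. The medians were 0.13 for writers and 0.21 for erasers, with -0.05 for all genes, and with the length trend removed they were -0.02 and 0.10, with -0.07 for all genes.

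The eraser score, the mean over the 10 genes of log2 CPM minus each gene's mean over the 12 libraries, was 0.21, 0.18 and 0.14 in moderate mutant libraries and -0.10, -0.06 and -0.08 in moderate wild type libraries. It was 0.04, -0.10 and -0.08 in fortified mutant and 0.04, -0.24 and 0.05 in fortified wild type libraries. The moderate mutant libraries were the 3 highest of the 12, but whether they are independent was not tested. They also had the 3 lowest proliferation scores of the 12 (-0.57, -0.59 and -0.48). The eraser score is not corrected for length, and 8 of the 10 erasers were in the bin of longest transcripts. The parts of proliferation and length in this score were not tested. For the writers, the score was 0.11, 0.14 and 0.15 in moderate mutant and 0.12, 0.02 and -0.01 in moderate wild type libraries, which overlapped. By role, the split was not one of erasers against writers. H3K4 writers scored 0.24 to 0.41 in moderate mutant libraries and 0.17 or less in all others. H3K36 writers scored 0.17 to 0.26 there and 0.14 or less in all others. Amine oxidase erasers did not separate, with -0.03 to 0.09 there and up to 0.17 in fortified mutant libraries.

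**Figure D5:**
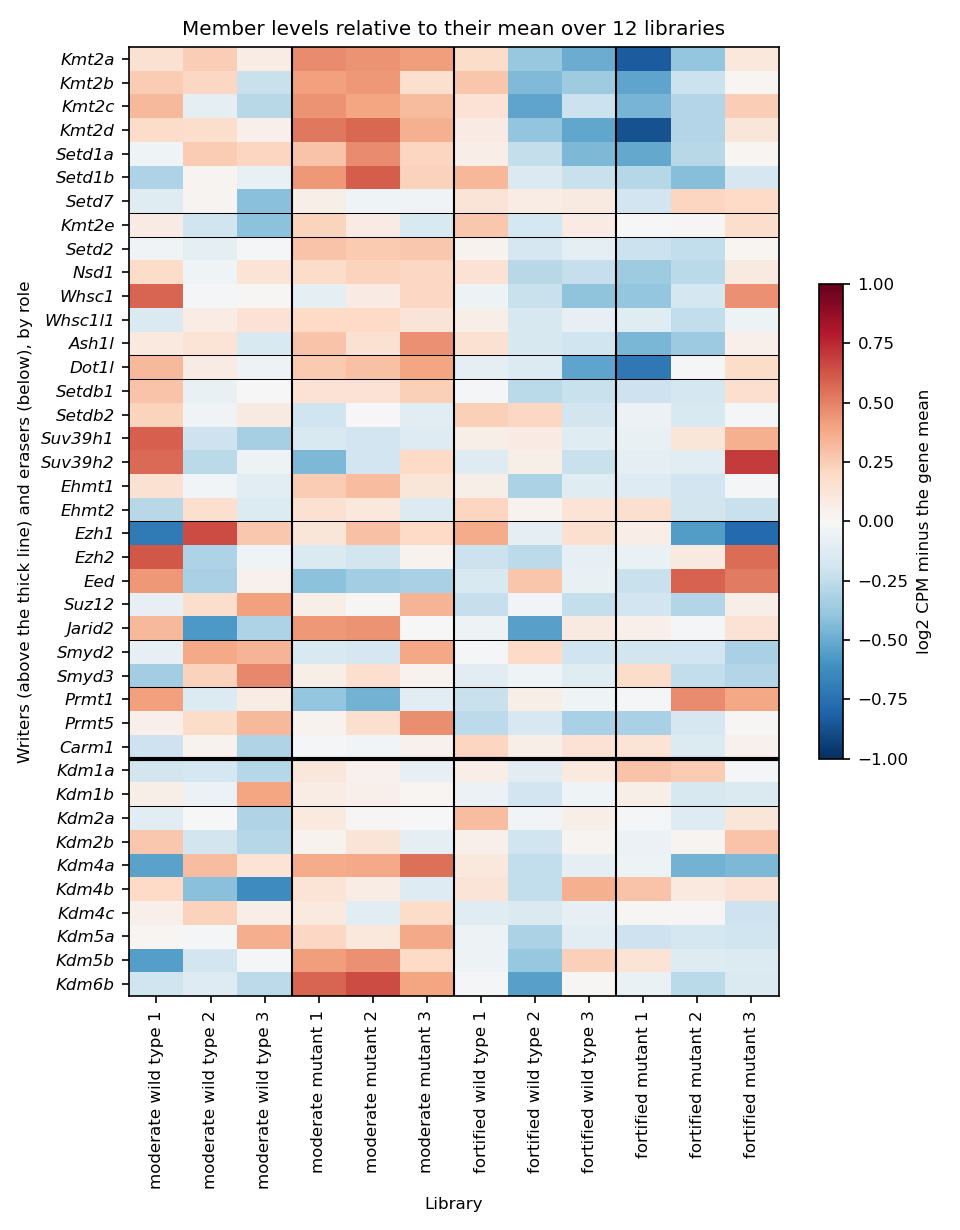
Log2 CPM of each member minus its mean over the 12 libraries (red higher, blue lower, colour limits at -1 and 1), by role, with groups separated by vertical lines and writers above the thick line. The moderate mutant libraries are red for most H3K4 writers and for Kdm4a, Kdm5b and Kdm6b, and fortified mutant 1 is blue for the H3K4 writers.

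At fortified folic acid, mutant and wild type cells differed in 0 of 40 members by adjusted p, as for all genes (0%), and in 0 members by unadjusted p, against 3.29% of all genes. DESeq2 passed 0 members and 6 genes (0.0396%). Groups did not overlap for 1 member, Ezh2, which was higher in the mutant, against 10.3% of all genes, 4.66% higher. The medians were -0.01 for writers and 0.01 for erasers. Prmt1, the writer of smallest p, had 183, 223 and 207 CPM in fortified wild type and 211, 296 and 279 in fortified mutant libraries (0.36 ± 0.18, adjusted p = 0.939 by edgeR); without the 3 libraries of highest muscle and neuron levels it had 0.03. Kdm1a, the eraser of smallest p, had 102, 90.5 and 104 CPM in wild type and 119, 116 and 96.4 in mutant libraries (0.16 ± 0.13, adjusted p = 0.939 by edgeR). Averaged over both folic acid levels, 0 members and 0% of all genes passed, DESeq2 passed 0 members and 19 genes (0.133%), and 3 members had an unadjusted p under 0.05 by edgeR, all erasers: Kdm6b, Kdm5b and Kdm1a, against 4.64% of all genes. Groups did not overlap for 0 members and 0.0988% of all genes. Jarid2, the writer of smallest p there, had 0.33 ± 0.17 (adjusted p = 0.986 by edgeR) and 0.03 with Xist as a covariate. It had 45.0, 23.9 and 28.8 CPM in moderate wild type, 48.5, 49.0 and 35.8 in moderate mutant, 34.5, 24.4 and 38.1 in fortified wild type and 37.1, 35.2 and 39.6 in fortified mutant libraries.

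The interaction tested whether the genotype difference changed with folic acid. It passed for 0 members and 0% of all genes by edgeR, and for 0 members and 8 genes (0.0528%) by DESeq2. Of 40 members 7 had an unadjusted p under 0.05, against 6.68% of all genes. Those of smallest p were Setd1b (-0.85 ± 0.25, adjusted p = 0.708 by edgeR), Kdm6b (-0.74 ± 0.22, 0.708) and Prmt1 (0.81 ± 0.26, 0.708), and Eed had 0.76 ± 0.34 (0.708). So the calls for Kdm6b and Setd1b in mutant cells are not shown to differ from wild type cells.

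Further genes of the pathway were counted by list. For fortified against moderate folic acid over both genotypes, 4 of 20 other writers passed and all 4 were lower. The shares of all genes in this comparison, 17.8% passing and 8.86% passing as lower, are the background of this and the next 4 lists, and the lists of other writers, other erasers and partners of writers (4 of 20, 3 of 12 and 6 of 29) were near the first. Suv420h1, an H4K20 methyltransferase, had -0.61 (adjusted p = 0.0063 by edgeR) and kept it with the length trend removed (-0.51, 0.0123). Of 12 other erasers tested 3 passed as lower, led by Kdm3a, an H3K9 demethylase (-0.58, adjusted p = 0.0114 by edgeR). Of 29 partners of writers 2 passed as higher and 4 as lower. Rbbp5, a core COMPASS subunit, was at 42.2 to 64.0 CPM in the 6 moderate and 30.7 to 36.01 CPM in the 6 fortified libraries, without overlap (-0.66, adjusted p = 0.00692 by edgeR; -0.64 and 0.0133 with the length trend removed). Of 7 partners of erasers Hdac1, a histone deacetylase of the Kdm1a complexes, rose (0.50, adjusted p = 0.0123 by edgeR) and Rcor1 fell (-0.39, 0.0406). Values with the length trend removed are given here for Suv420h1 and Rbbp5 only. Whether the other genes named in this and the next paragraph keep their calls in that fit is not stated here.

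Of 6 genes for methyl donor supply 1 passed as higher and 3 as lower. Mtrr, which keeps methionine synthase active, was at 26.4 to 52.5 CPM in moderate and 18.8 to 24.7 CPM in fortified libraries (-0.94, adjusted p = 0.00692 by edgeR). Mat2a, the catalytic subunit of the enzyme that makes S-adenosylmethionine, had -0.39 (adjusted p = 0.0399 by edgeR) and its regulatory partner Mat2b had 0.56 (0.00878). In mutant cells alone, 1 other writer, 1 other eraser, 4 partners of writers, 1 partner of erasers and 2 donor genes passed, where 6.93% of all genes did. In wild type cells, in the genotype comparisons and in the interaction none of these lists had a gene that passed by edgeR. The other erasers include the Y-linked genes Kdm5d and Uty, with 0 counts in every mutant library. The score of that list was 1.01 to 1.20 in the wild type libraries with Y-linked counts and -0.17 or less in all others. That list therefore differed with the Y-linked transcripts, although no gene of it passed.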

How the data were processed

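The deposited tables hold expected counts and TPM per gene for 12 libraries of polyadenylated RNA, on mm10. Per the labels' protocols, RNA was extracted with trizol and chloroform and libraries made with the Tecan Universal Plus kit for mRNA. The expected counts come from the authors' salmon run, per the names of the deposited tables; its version, annotation and strand setting were not given in the sources used here. The authors' TPM were used as deposited for levels between genes, and as an alternative on log2(TPM + 1) and log2(TPM + 0.1).

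Expected counts were rounded, filtered by filterByExpr (minimum count 10, total 15), scaled by TMM and fitted in edgeR 4.0.16 (R 4.3.3) with 1 mean per group and quasi-likelihood tests, with Benjamini and Hochberg adjustment over 15186 genes for each of 7 contrasts. The common biological coefficient of variation was 0.33. Effective length is counts divided by TPM, taken relative to the median gene of each library and averaged over the libraries on a log scale. Alternatives used DESeq2 1.42.0 and limma 3.58.1. The length trend was a spline with 5 degrees of freedom, removed by offsets. The procedure was checked on simulated counts, drawn independently for each gene and library, with changes larger than those of the members that passed. The simulation had no trend on length and no differences in cell types or sex-linked transcripts. It therefore cannot show how the calls hold against these. Coordinates are from GENCODE (mm10) and promoters from RefSeq.

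The members and the lists of further genes were chosen with earlier results of these data known. Values in all libraries are given for members that passed and for the writer and eraser of smallest p in each contrast; Kdm5b, Kdm4a, Eed, Carm1 and Prmt1 in mutant cells were added after their values were seen. Further genes were named from the 3 of smallest p of a list, and Rsg1 carries a coding change that its RNA level does not check.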

Additional observations from a re-analysis of the deposited data

How the results depend on the processing

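Of 172 recomputed counts of passing members 139 stayed within 1.5 times the count given above and 33 did not. Most of the 139 were counts of 0 that stayed 0, in comparisons where no member had passed. In the comparisons where members had passed, more of the recomputed counts moved than stayed. Of 344 recomputed medians 291 moved by less than the spread between libraries (1 SD) and the others by more. The sign changed in 22 of the 344, of which 17 were for 3 medians near 0 with all libraries: 8 of erasers for folic acid in wild type cells, and 6 of erasers and 3 of writers for genotype at fortified folic acid. All 416 values of single named members kept their direction. Of these, 54 no longer passed and 1 newly passed. Only values of members that had passed with all libraries could lose a call. For folic acid in mutant cells Kdm6b passed in 17 and Setd1b in 16 of 25 alternatives. Of these, 6 left out a wild type library, which enters this comparison only through scaling, the filter and the shared spread, and all 6 kept both calls. The tallies above hold many such fits, where a library outside the groups compared was left out. A value that stayed in such a fit says little about how far it depends on the libraries compared. Over both genotypes Prmt5 passed in 22 of 24 alternatives, Kdm5a in 17, Setd1a and Kmt2d in 15 each and Kmt2a in 14. The causes were not tested.

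Counts of members passing were as follows. DESeq2 gave 1 for mutant against wild type at moderate folic acid, 11 for folic acid in mutant cells and 11 for folic acid over both genotypes. Of all genes, 0.398%, 16.4% and 26.0% passed in these fits. For folic acid in mutant cells, limma-voom with quality weights gave 21 (34.7% of all genes passed), limma on log2(TPM + 1) 17 (18.5%), on log2(TPM + 0.1) 18 (18.5%), a fit on only the groups compared 6 (14.4%), and the fit with the length trend removed 0 (0.56%), against 6.93% as fitted above. For folic acid over both genotypes, limma-voom gave 10 (25.3%), the TPM fits 19 each (24.6%), library totals alone 11 (19.0%), and the fit with the length trend removed 2 (13.3%), against 17.8%. Leaving out each library gave 0 to 6 in mutant cells (0 in 5 of 12 fits) and 0 to 8 over both genotypes (0 without fortified wild type 3).

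The TPM scale moved the median of all genes to -0.23 (TPM + 1) and -0.30 (TPM + 0.1) for folic acid in mutant cells, from 0.04, to -0.15 and -0.20 over both genotypes, to 0.12 and 0.17 for mutant against wild type at moderate folic acid, and to -0.16 and -0.21 for the interaction. The members' medians moved with it. For writers they were 0.29 and 0.31 for genotype at moderate folic acid, -0.57 and -0.59 for folic acid in mutant cells, -0.44 and -0.46 over both genotypes, -0.39 and -0.40 for the interaction, and -0.30 at TPM + 0.1 for folic acid in wild type cells. For erasers they were 0.38 and 0.38, -0.42 and -0.46, -0.34 and -0.37, and -0.37 and -0.39 in the same order, then -0.11 and -0.12 for folic acid in wild type cells and 0.19 and 0.19 for genotype over both levels.

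With the length trend removed, 3 medians turned sign: writers for genotype at moderate folic acid (-0.017) and over both levels (-0.023), and erasers for folic acid in mutant cells (0.0070). Others moved toward 0: erasers for genotype at moderate folic acid (0.10), writers for folic acid in mutant cells (-0.11), writers (-0.068) and erasers (-0.030) over both genotypes, and writers (-0.051) and erasers (-0.061) for the interaction.

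With Xist as a covariate the medians were 0.078 for erasers at moderate folic acid, -0.12 for writers at fortified folic acid and -0.049 for writers over both levels (a change of sign), all for genotype. Without the 3 libraries of highest muscle and neuron levels, genotype at fortified folic acid gave -0.13 for writers and 0.10 for erasers, genotype over both levels -0.036 for writers (a change of sign), folic acid in wild type cells -0.051 for writers, and the interaction -0.28 and -0.27. Library totals alone gave -0.29 for writers and -0.074 for erasers for folic acid in wild type cells, and limma-voom gave -0.094 for writers there and -0.26 for erasers in the interaction.

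Leaving out each library, the medians for writers ran from -0.11 to 0.10 (genotype at fortified folic acid), -0.21 to -0.056 (folic acid in wild type cells), -0.39 to -0.24 (folic acid in mutant cells) and -0.29 to -0.11 (interaction). Those for erasers ran from -0.10 to 0.090 (genotype at fortified folic acid), -0.044 to 0.14 (folic acid in wild type cells) and -0.31 to -0.083 (interaction).

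Replicate numbers did not pair the libraries: of 18 pairs with the same number, correlations of deviations ran from -0.48 to 0.24 and 4 were over 0.1. The fit with the replicate block passed 1 member for folic acid in mutant cells (Kdm6b; 3.68% of all genes passed) and 3 over both genotypes (Kdm5a, Prmt5 and Setd1a; 15.2%), so that Setd1b (adjusted p = 0.0614 by edgeR), Kmt2a (0.0590) and Kmt2d (0.0545) no longer passed.

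With 3 libraries a group, the spread between libraries and not the depth limits most of these values. Sex-linked transcripts differed between the genotypes, and marker levels of fibroblasts and of other cell types differed between libraries. Most members have long transcripts. The parts of these in the members' differences were not tested apart from the fits above.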
